A study of Mus musculus with 2 samples.

Results

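Complement components and regulators were represented by 9 genes, C1qa, C1qb, C1qc, C1ra, C1s1, C4b, C3, Cfb and Serping1, picked by gene symbol from the 31053 genes of the feature table, and all 9 had a row there. They were followed as raw UMIs (unique molecular identifiers, 1 for each captured transcript molecule) in fibroblast-like, macrophage-like and epithelial cells of the mouse pancreas. Single-cell RNA was profiled in pancreatic cells taken after pancreatitis and sorted by EYFP fluorescence, with 1 library of EYFP positive cells and 1 library of EYFP negative cells. Mice of both groups were on the C57Bl/6J background with the genotype R26[CA]30EYFP, an EYFP reporter at Rosa26 that carries 30 CA repeat units, and the treatment field of both groups reads None. How many animals each library came from, how old they were and how long after pancreatitis they were sampled is not given in the labels. With 1 library per group there was no replicate and no test, the cells of a library share their source, and every interval covers counting error only.

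Complement is a set of plasma and tissue proteins that mark microbes and damaged cells. In the classical pathway, C1q binds a surface together with its partner proteases C1r and C1s, and C1s cuts C4 and C2. Fragments of C4 and C2 form an enzyme that cleaves C3, the protein on which all pathways meet. Factor B carries the alternative pathway, which amplifies C3 cleavage, and C1 inhibitor blocks C1r and C1s. Liver makes most circulating complement, while C1q is known to come largely from macrophages and related myeloid cells, and fibroblasts are a known local source of several other components.

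The 3 C1q genes lie side by side on the minus strand of chromosome 4, with C1qb at 136880129 to 136886187, C1qc at 136889804 to 136893065 and C1qa at 136895917 to 136898803. C1ra, on the plus strand at 124512405 to 124523443, and C1s1, on the minus strand at 124530345 to 124542359, are neighbours on chromosome 6. C3 (57203970 to 57228136), C4b (34728380 to 34743882) and Cfb (34856374 to 34862518) lie on the minus strand of chromosome 17, and Serping1 lies on the minus strand of chromosome 2 (84765387 to 84775444). All are protein-coding genes in GENCODE M21, whose build is GRCm38, and the positions are those of the files' gene identifiers in that annotation. RefSeq promoter windows (build GRCm38.p6) matched 5 of the 9 genes, C1qb, C1qc, C1ra, C1s1 and C3. The windows of C1qc and C1ra reach into the GENCODE gene and are not shown. The other 3 are shown because they pair a C1q gene with 2 genes that had most of their UMIs in fibroblast-like cells. Each is the 250 bases before the RefSeq start, 5′ to 3′ on the gene's strand, at chr4:136886201-136886450 (C1qb), chr6:124542360-124542609 (C1s1) and chr17:57228137-57228386 (C3), all minus strand, with the CEBP pattern TTNNGNAA in capitals.
C1qb: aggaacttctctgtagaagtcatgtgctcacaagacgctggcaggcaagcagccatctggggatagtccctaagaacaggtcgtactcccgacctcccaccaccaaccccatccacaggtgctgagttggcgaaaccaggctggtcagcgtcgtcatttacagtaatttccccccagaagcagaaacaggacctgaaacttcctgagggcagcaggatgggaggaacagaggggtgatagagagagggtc
C1s1: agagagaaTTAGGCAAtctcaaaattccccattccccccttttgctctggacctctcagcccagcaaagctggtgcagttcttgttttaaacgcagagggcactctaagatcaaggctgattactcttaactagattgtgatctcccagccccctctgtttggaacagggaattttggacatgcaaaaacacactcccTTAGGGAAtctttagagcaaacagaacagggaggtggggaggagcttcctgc
C3: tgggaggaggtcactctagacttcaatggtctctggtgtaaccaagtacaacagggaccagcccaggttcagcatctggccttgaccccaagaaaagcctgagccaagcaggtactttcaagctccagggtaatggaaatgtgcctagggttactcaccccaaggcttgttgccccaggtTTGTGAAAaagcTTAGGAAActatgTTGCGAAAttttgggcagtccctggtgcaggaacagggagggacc
The search covered 6 patterns on both strands. TTNNGNAA, the pattern of the CEBP factors, was found in the windows of C3 (3 matches), C1s1 (2), C1ra (2) and C1qc (1), and in 36.8% of 32536 RefSeq windows of the same length. GAGGAAG, the pattern of PU.1, was found in the C1qc window and in 10.7% of all windows. The patterns of STAT (TTCNNNGAA, 7.04% of windows), interferon response element (2 copies of GAAA with 2 bases between them, 2.98%), NF-kB (GGGA and TTCC with 2 bases between them, 1.21%) and AP-1 (TGANTCA, 6.73%) were in none of the 5 windows. A match is a string of letters, and neither a match nor its absence says that a factor binds.

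The libraries held 4006807 UMIs in 1717 barcodes (EYFP positive) and 5295816 UMIs in 745 barcodes (EYFP negative), and 860 and 553 cells passed the filters with a median of 1007.5 and 8020 UMIs. Fibroblast-like cells numbered 64 and 6, macrophage-like cells 26 and 11, and ductal-like cells 224 and 2 in the EYFP positive and the EYFP negative library. T-like cells, which should lack most of these transcripts, numbered 100 and 389. All 13 fibroblast markers were detected in the fibroblast-like cells of both libraries, led by Dcn with 11879 and 23478 CPM (UMIs scaled to a class total of 1000000), while 12 of the 13 macrophage or monocyte markers were at 0 there and the one detected summed to 295 and 486 CPM. The fibroblast markers were not at like levels in both. Pi16 (2598 and 42.2 CPM), Mfap5 (1549 and 317), Col14a1 (1314 and 401) and Dpt (2549 and 1203) were lower in EYFP negative cells. The other fibroblast markers were higher there. In macrophage-like cells 12 and 13 of the 13 macrophage markers were detected, at 15644 and 14203 CPM together, and the fibroblast markers summed to 62.9 and 22.6 CPM. Acinar marker RNA was found in EYFP positive fibroblast-like cells (5430 CPM over 10 of 12 genes) and was at 0 in the 6 EYFP negative ones, and its part in the results was not tested. Ductal-like cells of the EYFP positive library fell into a cluster of 28 deep cells and a cluster of 196 shallow cells, and 1 cell of the shallow cluster held 29291 of its 29317 endocrine marker UMIs. Of 4 barcodes shared by both libraries 2 were among the kept cells, and none of the 4 cells concerned held a C1q UMI.

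C1qa, C1qb and C1qc, which encode the 3 chains of C1q, were found almost only in cells with macrophage genes. EYFP positive macrophage-like cells held 1361 of the library's 1745 C1q UMIs, a share of 78.0% (95% exact Clopper-Pearson interval 76.0 to 79.9), at 7782 CPM. EYFP negative macrophage-like cells held 474 of 475 (99.8%, 98.8 to 100), at 3575 CPM. Another 336 EYFP positive C1q UMIs, at 7183 CPM, lay in a cluster of 27 cells left without a name because its leading genes were both hemoglobin genes (Hbb-bs, Hba-a1) and macrophage genes (Lyz2, Lgals3). With those cells counted as macrophage-like, a choice made after the data were seen, the EYFP positive share was 97.2%. With each cell thinned to 500 UMIs it was 39.2%. Fibroblast-like cells had 0 C1q UMIs in both libraries, which allows up to 18.1 CPM (EYFP positive) and 63.3 CPM (EYFP negative).

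By gene, EYFP positive macrophage-like cells had 511 C1qa UMIs (2922 CPM, 95% exact Poisson interval 2674 to 3187), 485 C1qb UMIs (2773 CPM, 2532 to 3031) and 365 C1qc UMIs (2087 CPM, 1878 to 2313). In the EYFP negative library the levels were 1501 CPM for C1qa (1300 to 1725), 1177 CPM for C1qb (999 to 1376) and 898 CPM for C1qc (744 to 1074). C1qa made up 37.5% of C1q UMIs in EYFP positive and 42.0% in EYFP negative macrophage-like cells and 36.9% in the unnamed cluster. C1qb made up 35.6%, 32.9% and 40.8%, and C1qc 26.8%, 25.1% and 22.3%. C1qc had the fewest UMIs in all 3, while C1qa had the most in macrophage-like cells and C1qb in the unnamed cluster. Against fibroblast-like cells, macrophage-like cells were at least 162-fold higher for C1qa, 153-fold for C1qb and 115-fold for C1qc in the EYFP positive library, and at least 23.7-fold, 18.6-fold and 14.2-fold higher in the EYFP negative library, where the limit is set by the 47363 UMIs of 6 fibroblast-like cells.

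Not every macrophage-like cell carried C1q. In the EYFP positive library 12 of 26 cells (median 3369.5 UMIs) had a C1q UMI, 10 of them from all 3 genes, and 9 cells with at least 10 C1q UMIs held 1353 of the 1361 UMIs. In the EYFP negative library 5 of 11 cells (median 11902 UMIs) had one, and 4 held 472 of the 474 UMIs. For comparison, 1 of 100 EYFP positive and 1 of 389 EYFP negative T-like cells (medians 6930.5 and 8543 UMIs) had a single C1q UMI. Thinned to 500 UMIs per cell, 11 of 26 EYFP positive macrophage-like cells and 1 of 100 T-like cells had C1qa. Among cells of at least 5000 UMIs, a limit chosen after the data were seen, 8 of 12 EYFP positive and 3 of 9 EYFP negative macrophage-like cells had C1q. Depth alone did not separate the cells with and without C1q, and its part was not tested. The 3 deepest EYFP positive macrophage-like cells, with 29659, 22307 and 18488 UMIs, had none, while the next, with 15132 UMIs, had 136 C1qa, 121 C1qb and 86 C1qc UMIs, and an EYFP negative cell of only 2316 UMIs had 36, 31 and 20. A finer clustering split the class into 26 cells led by Lyz2, Cd74 and H2-Aa, with all 1835 C1q UMIs of both libraries in 17 of them, and 11 cells led by Fscn1, an actin-bundling gene of mature dendritic cells, with 0 C1q UMIs (up to 69.1 CPM). The group led by Lyz2 had 16 EYFP positive and 10 EYFP negative cells, of which 12 and 5 had C1q. The group led by Fscn1 had 10 and 1. In the heat map of single cells, macrophage-like cells with and without C1q appear as bright and empty columns side by side.

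**Figure D1:**
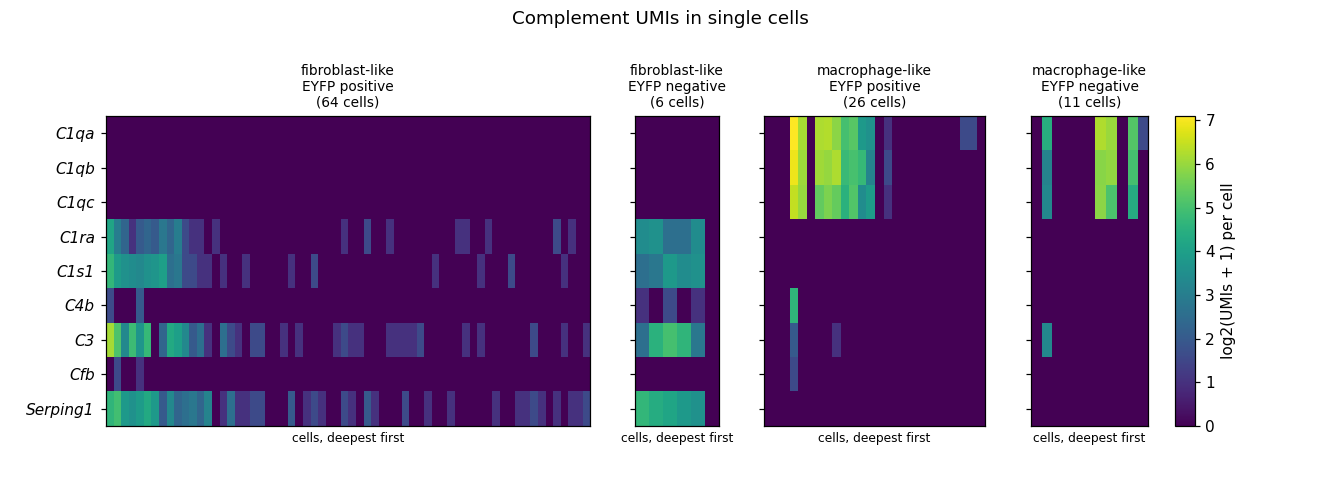
UMIs of the 9 complement genes (vertical axis) in each fibroblast-like and macrophage-like cell (horizontal axis, ordered from the deepest to the shallowest cell within a panel), as log2(UMIs + 1) by colour. C1q UMIs fill 12 of 26 and 5 of 11 macrophage-like columns and no fibroblast-like column, while C1ra, C1s1, C3 and Serping1 fill the deep fibroblast-like columns together.

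Outside those cells C1q was scarce. All 30 C1q UMIs of the endothelial-like class lay in 1 EYFP positive cell of 6868 UMIs, which held 89 UMIs of 11 macrophage markers besides 51 UMIs of 8 endothelial markers. Ductal-like cells had 2 C1q UMIs in 224 cells, both C1qa, so macrophage-like cells were 1222-fold higher for C1qa (337 to 10118) and at least 773-fold and 582-fold higher for C1qb and C1qc in the EYFP positive library. One of those 2 UMIs lay in the cell with the endocrine markers.

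C1ra and C1s1, which encode the proteases that C1q carries, were found in fibroblast-like cells and had 0 UMIs in macrophage-like cells of both libraries. C1s1 had 134 UMIs in EYFP positive fibroblast-like cells (808 CPM, 677 to 956) and 45 in EYFP negative ones (950 CPM, 693 to 1271). C1ra had 71 UMIs (428 CPM, 334 to 540) and 41 UMIs (866 CPM, 621 to 1174). The fibroblast-like cells thus held 134 of 141 and 45 of 47 C1s1 UMIs, and 71 of 86 and 41 of 42 C1ra UMIs. Against macrophage-like cells, fibroblast-like cells were at least 47.1-fold (EYFP positive) and 42.0-fold (EYFP negative) higher for C1s1, and at least 24.9-fold and 38.3-fold higher for C1ra.

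Some of the remainder was epithelial. The EYFP positive ductal-like cells had 11 C1ra UMIs, 10 of them in 7 of the 28 deep cells with 1 or 2 each, and 0 C1s1 UMIs (up to 3.59 CPM). Fibroblast-like cells were 32.5-fold higher than ductal-like cells for C1ra (17.1 to 68.1) and at least 225-fold higher for C1s1. Endothelial-like cells held 7 C1s1 and 4 C1ra UMIs in the EYFP positive library. In mouse, C1ra and C1s1 have close copies, C1rb and C1s2, and 50.8% and 24.3% of the 50-base words in their longest transcripts also occur in other genes, and how reads common to copies were counted is not known. In the first 500 bases, the 5′ end, these shares were 17.3% and 25.1%. C1rb and C1s2 had 0 UMIs in these cells. An antisense gene with 0 UMIs, Gm16567, covers 18.4% of the C1s1 exon bases, and the sources used here do not state whether strand was used in counting.

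Serping1, which encodes C1 inhibitor, followed the proteases it blocks. EYFP positive fibroblast-like cells had 204 UMIs (1229 CPM, 1067 to 1410) and EYFP negative ones 86 (1816 CPM, 1452 to 2242), which were 95.3% and 100% of the Serping1 UMIs in kept cells. Macrophage-like cells had 0, so that fibroblast-like cells were at least 71.7-fold and 80.2-fold higher. The 4 Serping1 UMIs of the ductal-like class all lay in the 1 cell of 53707 UMIs that held the endocrine markers, and against the class as a whole fibroblast-like cells were 257-fold higher (98.9 to 953). Serping1 had UMIs in 40 of 64 EYFP positive fibroblast-like cells (62.5%, 49.5 to 74.3, at a median depth of 707 UMIs), against 0 of 100 T-like cells (which allows up to 3%) at a median of 6930.5. Thinned to 500 UMIs per cell, 29 of 64 fibroblast-like cells (45.3%) and 0 T-like cells had it.

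C3, the central component, had most of its UMIs in fibroblast-like cells in both libraries, followed by ductal-like cells in the EYFP positive library (68 UMIs) and macrophage-like cells in the EYFP negative library (9 UMIs). EYFP positive fibroblast-like cells had 265 of 338 C3 UMIs (78.4%, 73.6 to 82.7) at 1597 CPM (1411 to 1801), and EYFP negative ones 88 of 101 (87.1%, 79.0 to 93.0) at 1858 CPM (1490 to 2289). The 6 EYFP negative fibroblast-like cells had 31, 24, 22, 6, 5 and 0 C3 UMIs, and the cell with 0 was the shallowest, with 857 UMIs. In the EYFP positive library 34 of 64 cells had C3 (53.1%, 40.2 to 65.7), up to 69 UMIs in the deepest cell of 17297 UMIs, against 0 of 100 T-like cells, and 2 of 389 EYFP negative T-like cells had a C3 UMI. Macrophage-like cells had 4 C3 UMIs in 2 EYFP positive cells (22.9 CPM) and 9 in 1 EYFP negative cell (67.9 CPM), so fibroblast-like cells were 69.8-fold (26.95 to 258) and 27.4-fold (13.8 to 61.8) higher.

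Among epithelial cells, C3 lay mostly in ductal-like cells. They had 68 C3 UMIs in the EYFP positive library (81.3 CPM, 63.1 to 103), 20.1% of its total, and fibroblast-like cells were 19.6-fold higher (14.999 to 26.04). Of these UMIs 63 lay in 7 of the 28 deep cells, which had 22, 19, 9, 7, 3, 2 and 1, so C3 was uneven among ductal-like cells of similar depth. The cell with 22 had 826 UMIs of 9 ductal markers and 2 fibroblast marker UMIs, and the cell with 19 had 247 UMIs of 11 ductal markers and 0 fibroblast marker UMIs. In the EYFP negative library 1 of the 2 ductal-like cells, of 70711 UMIs, had 2 C3 UMIs, and its barcode is one of those found in both libraries. Acinar-like cells had 1 C3 UMI in 90 EYFP positive cells.

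**Figure D2:**
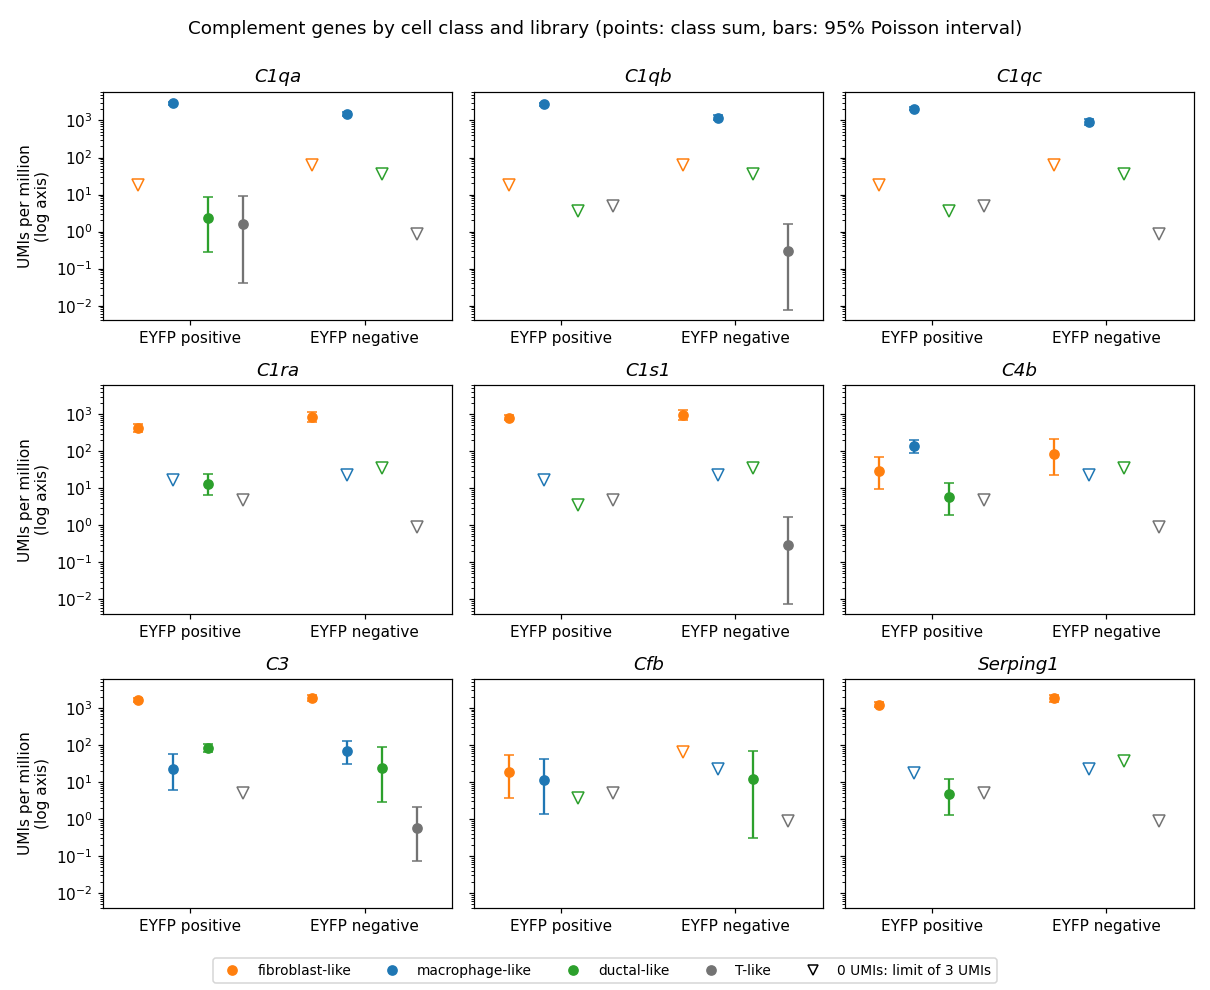
Level of each complement gene in CPM (vertical, log axis) by cell class (colours) and library (horizontal), as the class sum with its 95% exact Poisson interval. Open triangles mark sums of 0 at the limit that 3 UMIs would give. C1ra, C1s1, C3 and Serping1 are highest in fibroblast-like cells and the C1q genes in macrophage-like cells in both libraries.

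C4b, which encodes the C4 protein that C1s cuts, was scarce and did not keep to one class. EYFP positive macrophage-like cells had 24 C4b UMIs (137 CPM, 87.9 to 204) and fibroblast-like cells 5 (30.1 CPM, 9.78 to 70.3), a fold of 0.220 (0.0654 to 0.587) for fibroblast-like over macrophage-like cells. All 24 lay in 1 cell of 15132 UMIs, the cell with the most C1q (343 UMIs), which also held 15 UMIs of Cfp, 3 of C3 and 2 of Cfb, with 401 macrophage marker UMIs over 11 genes and 0 fibroblast marker UMIs. Without that cell the macrophage-like class had no C4b UMI and the remaining UMIs were too few for a fold. In the EYFP negative library fibroblast-like cells had 4 C4b UMIs in 3 cells (84.5 CPM, 23.0 to 216) and macrophage-like cells 0. A ductal-like cell of the EYFP positive library held 5 more and an NK-like cell 1. C4a had no row in the feature table, and 35.2% of the 50-base words of the longest C4b transcript also occur in C4a, so how reads common to both were counted is not known. In its first 500 bases, the 5′ end, the share was 47.0%.

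Cfb, which encodes factor B, had 9 UMIs in all kept cells. They were 3 in fibroblast-like, 3 in endothelial-like and 2 in macrophage-like EYFP positive cells, and 1 in the EYFP negative ductal-like cell whose barcode both libraries share. No fold was formed. The gene Gm20547 shares 79.5% of the Cfb exon bases on the same strand and had 0 UMIs, and how reads common to both were counted is not known. The 50-base words of the longest Cfb transcript that also occur in Gm20547 made up 0% of its first 500 bases, the 5′ end. In its last 500 bases they made up 91.6%.

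**Figure D3:**
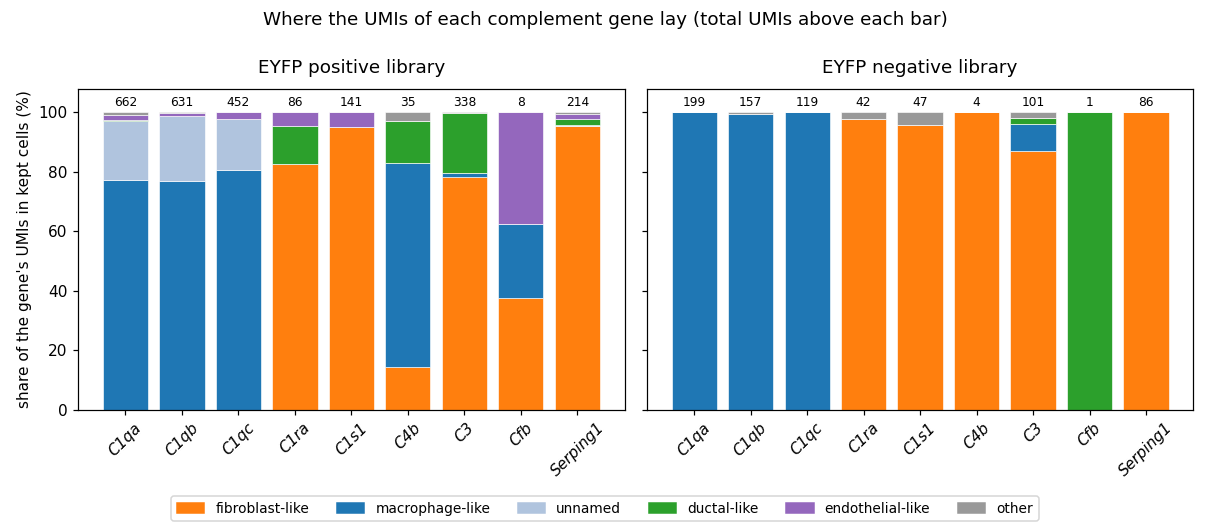
Share of each complement gene's UMIs in kept cells (vertical, %) held by each cell class (colours), with the gene's total UMIs above its bar, for the EYFP positive (left) and the EYFP negative library (right). The unnamed share of the C1q bars on the left is mostly the cluster with macrophage and hemoglobin genes, and the C4b and Cfb bars rest on 35, 4, 8 and 1 UMIs.

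In single fibroblast-like cells C1ra, C1s1, C3 and Serping1 occurred together once a cell was deep enough. Among cells of at least 5000 UMIs, a limit chosen after the data were seen, 9 of 10 EYFP positive and 5 of 5 EYFP negative cells had all 4 genes. The exception, an EYFP positive cell of 9854 UMIs, had 12 C1s1, 3 C1ra and 13 Serping1 UMIs and 0 of C3. Over all depths all 4 were seen in 12 of 64 and 5 of 6 cells, and at least 1 of them in 56 of 64 and 5 of 6. No macrophage-like cell had more than 1 of the 4, which follows from the 0 UMIs of C1ra, C1s1 and Serping1 in that class. Finer clustering split the fibroblast-like cells into 60 cells led by Gsn, Dcn, Clec3b and Pi16 (59 of them EYFP positive) and 10 cells with Col4a1, Lpl and Mgp among the leading genes (5 from each library). Within the EYFP positive library, C3 was at 1859 CPM in the first and 976 CPM in the second group, Serping1 at 1294 and 1077 CPM, C1ra at 445 and 386 CPM, and C1s1 the other way at 711 and 1037 CPM. The 5 EYFP negative cells of the second group had 1892 CPM of C3, 1849 CPM of Serping1, 882 CPM of C1ra and 968 CPM of C1s1. In that group C3, Serping1 and C1ra were thus higher in the EYFP negative cells. The first group held 1 EYFP negative cell, with 0 UMIs of these genes, so the 2 groups can be compared in the EYFP positive library only.

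Counted over the 9 genes, fibroblast-like cells were at least 2-fold higher than macrophage-like cells for 4 (C3, C1s1, C1ra, Serping1) of 8 genes with at least 10 UMIs in the EYFP positive library, where 24.4% of 5101 genes were, and at least 2-fold lower for 4 (C4b and the C1q genes), where 24.5% were. In the EYFP negative library the counts were 4 of 7 (22.4% of 3031 genes) and 3 of 7 (27.9%). Either way these were 8 of 8 (48.8% of all genes) and 7 of 7 (50.3%). The C1q genes had 0 UMIs in fibroblast-like cells, and C1s1, C1ra and Serping1 had 0 in macrophage-like cells. These genes reached 10 UMIs only through the other class, so their calls follow largely from that filter and the bound of 3 UMIs. The counts are thus no support beyond the levels given above. With cells thinned to 500 UMIs, where fewer genes reach 10 UMIs, the higher counts were 2 and 0. The median log2 fold was 1.23 over the 8 genes and -0.08 over all genes in the first library, and 4.77 and -0.25 in the second, with genes at 0 UMIs taken at their bound. Since the genes went both ways in each library, these medians describe no common shift towards fibroblast-like cells. Over ductal-like cells, fibroblast-like cells were at least 2-fold higher for 5 of 5 genes (14% of 9463 genes, with 25.5% lower and 39.6% either way), C4b among them with 5 UMIs in each class (5.04-fold, 1.16 to 21.9). The C1q genes had too few UMIs to be counted there, and C1s1 had 0 UMIs in ductal-like cells. Macrophage-like over ductal-like cells gave 4 of 6 higher (14.5% of 9424 genes) and 1, C3, lower (28.4%, with 43% either way). In that comparison C1qb and C1qc had 0 UMIs in ductal-like cells. The calls of C1s1, C1qb and C1qc against ductal-like cells thus follow largely from the same filter and bound. The C4b call of macrophage-like over ductal-like cells rests on 24 UMIs in 1 cell and 5 UMIs in 1 cell. These counts too are no support beyond the levels.

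Between the libraries, C3, C1s1, C1ra and Serping1 were lower in EYFP positive fibroblast-like cells, with intervals that include 1 for C3 and C1s1. EYFP positive over EYFP negative folds were 0.860 for C3 (0.673 to 1.11), 0.850 for C1s1 (0.602 to 1.22), 0.677 for Serping1 (0.524 to 0.882) and 0.494 for C1ra (0.332 to 0.745). C1ra was thus the 1 of 4 genes at least 2-fold lower (18% of 3526 genes were, with 14.9% higher and 33% either way), and it lay on the other side of that limit, at 0.503 to 0.547, under 5 alternatives. The median log2 fold was -0.40 over the 4 genes and -0.07 over all. C1s1 passed the limit under others, at 0.483 as a mean over cells and 0.375 with cells thinned to 500 UMIs, and stood at 1.05 in cells of at least 5000 UMIs. C3 was at 0.619 as a mean over cells. These folds set 64 cells of a median of 707 UMIs beside 6 cells of a median of 8838 UMIs. The class was also made up differently. In the finer clustering, 59 of the 64 EYFP positive cells lay in the group led by Gsn, Dcn, Clec3b and Pi16. Of the 6 EYFP negative cells, 5 lay in the group with Col4a1, Lpl and Mgp. The folds of the whole class thus mix library and group, and the part of each was not tested.

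In macrophage-like cells the EYFP positive library was 1.95-fold higher for C1qa (1.65 to 2.30), 2.36-fold for C1qb (1.96 to 2.84) and 2.33-fold for C1qc (1.89 to 2.88). With C4b (at least 6.06-fold) 3 of 5 genes were at least 2-fold higher (16.2% of 4323 genes) and C3, at 0.337 (0.0758 to 1.21), was lower (11.9%, with 28.2% either way). C4b reached 10 UMIs only through 24 UMIs in 1 EYFP positive cell, against 0, and enters at its bound. Without that cell, the one with the most complement UMIs, the genes at least 2-fold different were 1 instead of 4. The median log2 fold was 1.22 over the 5 genes and -0.02 over all. The C1q difference was not stable to how cells were weighted. In the order C1qa, C1qb, C1qc, the folds were 0.714, 0.816 and 0.883 as a mean over cells and 0.534, 1.16 and 0.654 with cells thinned to 500 UMIs. They were 1.56, 1.94 and 1.95 without the 1 cell with the most complement UMIs. In the other direction, they were 6.87, 8.33 and 8.14 with each cell classed by its own markers, and 2.51, 3.103 and 2.89 in cells of at least 5000 UMIs. The class was also made up differently, since the cells led by Fscn1, with 0 C1q UMIs, made up 10 of 26 cells when EYFP positive and 1 of 11 when EYFP negative. At clustering resolution 2.0, where those cells are not in the class, the folds were 1.97, 2.38 and 2.35. The direction of the C1q difference thus changed with the weighting of the cells.

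Of 45 further complement genes, 1 (C4a) had no row, 12 had 0 UMIs, 11 had 1 to 9 and 21 had at least 10 UMIs. C2, the partner of C4, was highest in fibroblast-like cells with 5 UMIs in EYFP positive and 11 in EYFP negative cells (30.1 and 232 CPM), and 0 in macrophage-like cells. Cfp, or properdin, which stabilises the alternative pathway enzyme, lay in macrophage-like cells with 45 and 26 UMIs (257 and 196 CPM). Fcna, a ficolin, and Colec12, a collectin, lay in different classes, with 33 of 34 Fcna UMIs in macrophage-like cells (27 of them in 1 cell) and 39 of 43 Colec12 UMIs in fibroblast-like cells. No gene of the terminal pathway reached 10 UMIs (0 of 7), and Cfd, the protease that activates factor B, had 0.

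Receptors and membrane regulators were spread over several classes. The C3a receptor gene C3ar1 and the C5a receptor gene C5ar1 were highest in macrophage-like cells (234 and 90.5 CPM for C3ar1, 114 and 30.2 CPM for C5ar1) and had 0 UMIs in fibroblast-like cells. Cr2, the receptor for C3 fragments on B cells, had 279 of its 297 UMIs in B-like cells. Cd93, an endothelial surface gene, had 157 of 194 UMIs in endothelial-like cells. Cd55, which protects cells from C3 cleaving enzymes, was at 639 CPM in EYFP positive and 106 CPM in EYFP negative fibroblast-like cells, beside 540 and 415 CPM in B-like cells. Clu, which restrains the terminal pathway, had 6309 of its 6458 UMIs in ductal-like cells (6573 and 9743 CPM).

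**Figure D4:**
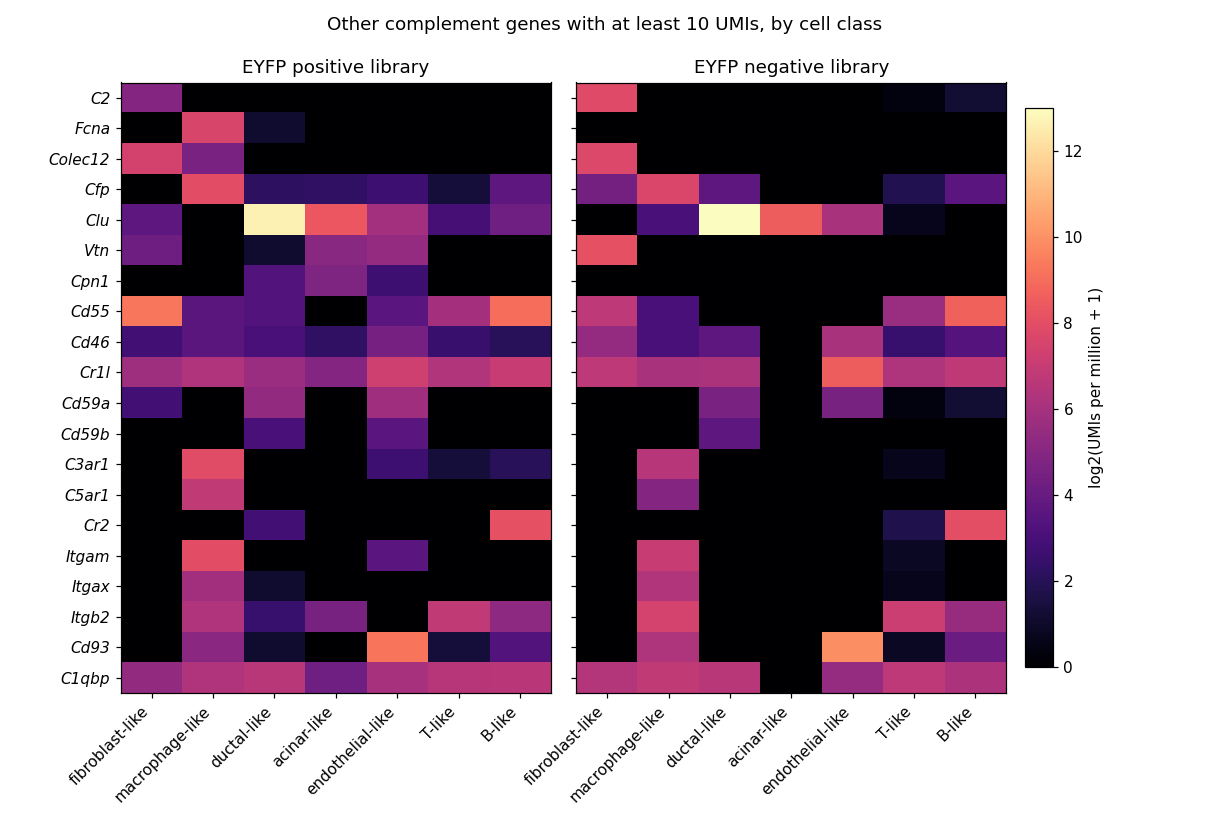
Level of 20 further complement genes with at least 10 UMIs (vertical) by cell class (horizontal), as log2(CPM + 1) by colour, in the EYFP positive (left) and the EYFP negative library (right). Black squares hold 0 UMIs, and the EYFP negative ductal-like and acinar-like columns rest on 2 cells and 1 cell.

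Over 13 sums of a class in 1 library with at least 10 cells, with log2(CPM + 10) values and 11014 genes ranked, the genes most like C3 were Dbn1 (Pearson r 0.993), Col27a1 (0.961), Cercam (0.955), Klhl13 (0.944) and Arhgap6 (0.938). Those most like Serping1 were Htra1 (0.998), Loxl2 (0.998), Ebf2 (0.995), Cdh11 (0.995) and Adcyap1r1 (0.995). Those most like C1qa were Clec4a2 (0.996), Pla2g7 (0.990), Lyz2 (0.987), Cd300c2 (0.987) and Adgre1 (0.986). The points share 2 libraries and their depths, the EYFP negative fibroblast-like cells are too few to be a point, and the values describe these sums. Fibroblast-like cells are thus 1 of the 13 points. A gene high only there gets a large r with Serping1 from that 1 point, and the same holds for C1s1 with Serping1. Among the 9 genes themselves, C1qb and C1qc were most alike (r 0.998), C1s1 and Serping1 had r 0.987, and C3 and Serping1 had r 0.822.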

How the data were processed

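The members and lists were chosen with earlier results of these data known. The authors deposited raw UMI counts, whole numbers for each gene in each barcode, with no normalization apparent. Cell Ranger 2.1.0 and build GRCh38 are named per the submitters' processing notes. Version 3.1.0 is named per the file headers, and the identifiers belong to mouse genes, so which build the reads were mapped to is not known here. Per the labels' protocols a Chromium Single Cell 5′ kit was used.

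Cells needed at least 200 genes and no more than 20% mitochondrial UMIs. The 2 libraries were clustered jointly in scanpy 1.11.5 (genes in at least 3 cells, counts scaled to 10000 per cell, 2000 variable genes, 30 principal components, 15 neighbours, Leiden resolution 1.0), with all complement genes left out of the variable genes, so that they did not shape the classes. A cluster was called X-like where at least 3 listed markers, each with at least 5 UMIs, were 2-fold or more above the median cluster of the library giving most of its cells. It stayed unnamed where markers of another type were as frequent among its 10 leading genes, or where one came from another type that also passed. The rule grew out of earlier work on these data and was set with the clusters in view, after 1 other version had been tried. Doublets were kept. Scrublet marked 2 of 860 and 5 of 553 cells.

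CPM is the summed UMIs of a gene in a class of 1 library over that class total, times 1000000. Folds carry a conditional binomial 95% interval and were formed for genes with at least 10 UMIs in the 2 sums together when counted. A class at 0 was taken at 3 UMIs, and no fold is given where both sums held at most 3. Genes named outside the 9 members follow fixed rules, namely listed complement genes with at least 10 UMIs and the 5 genes most like C3, Serping1 and C1qa among genes with at least 30 UMIs. A fold of at least 2 was called. Alternatives, 12 of them listed beforehand and 4 added after the data were seen, are in the closing section. The scripts were tested on simulated data. One of the listed complement genes is not reported here.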

Additional observations from a re-analysis of the deposited data

Results flagged for a closer look

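The C4b fold of fibroblast-like over macrophage-like cells went opposite ways in the libraries, 0.220 in the EYFP positive and at least 3.73 in the EYFP negative library. The difference was not tested, the EYFP negative value rests on 4 UMIs against 0, and all 24 macrophage-like C4b UMIs of the EYFP positive library lay in 1 cell.

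Barcodes left out by the filter held 18 C1q UMIs in the EYFP positive library, in 12 of 857 barcodes, above the 3 UMIs that a count of 0 allows. The 192 barcodes left out of the EYFP negative library held 0.

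The unnamed cluster of 27 EYFP positive cells with macrophage and hemoglobin genes, which enters no class comparison, held 336 C1q UMIs. Each of the 27 cells had at least 1, at a median depth of 875 UMIs.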

How the results depend on the processing

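Of 16 alternatives, 12 were listed beforehand and 4 were added after the data were seen. No paired analysis was possible because each group is 1 library, and no library could be left out. Recomputed shares stayed inside their counting interval in all but 13 of 81 values. Class levels did so in 709 of 795 and folds in 357 of 404. All but 11 counts of genes stayed within 1.5 times. Some of these values were fixed in advance yet counted, so the counts overstate stability. Naming the clusters left unnamed only for as many markers of another type added no fibroblast-like, macrophage-like or ductal-like cells. A lower UMI limit for folds cannot change a share, a class level or a fold already formed. Leaving out 1 macrophage-like cell cannot change a fibroblast-like level or a fold between libraries in fibroblast-like cells. At resolution 0.5 the macrophage-like cells merged with the hemoglobin cluster and no macrophage-like value was obtained.

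The EYFP positive share of C1q UMIs in macrophage-like cells (78.0%) was 85.6% under the strict filter (500 genes, 10% mitochondrial UMIs), 85.3% with each cell classed by its own markers, 72.6% without the cell with the most UMIs (also without the cell with the most complement UMIs), 39.2% with cells thinned to 500 UMIs, 97.2% with the hemoglobin cluster added and 96.8% in cells of at least 5000 UMIs. The EYFP negative share was 100% thinned. The EYFP positive C3 share in fibroblast-like cells was 72.9% without the cell with the most UMIs and 87.8% thinned. The share of C4b, C1s1, C1ra and Serping1 UMIs in fibroblast-like cells, 87.0% and 98.3%, was 92.8% and 100% thinned, and 91.6% in the EYFP positive library without the cell with the most complement UMIs. C4b differs from the other genes of this set. In the EYFP positive library 5 of its 35 UMIs lay in fibroblast-like and 24 in macrophage-like cells. Without C4b the shares were 92.7% (EYFP positive) and 98.3% (EYFP negative).

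Genes at least 2-fold higher in fibroblast-like than macrophage-like cells, 4 in each library, were 2 (EYFP positive) and 0 (EYFP negative) thinned, where fewer genes have 10 UMIs. Genes 2-fold different between libraries in fibroblast-like cells (1) were 0 under the strict filter, with cells classed by their own markers, with a class total that omits acinar, mitochondrial and ribosomal genes and in cells of at least 5000 UMIs, and 2 thinned and with folds from 3 UMIs. In macrophage-like cells (4) they were 2 as a mean over cells, 0 thinned and 1 without the cell with the most complement UMIs. The EYFP positive over EYFP negative fold in macrophage-like cells turned for C3 (1.08 with cells classed by their own markers), C1qa (0.714 as a mean over cells and 0.534 thinned), C1qb (0.816 as a mean over cells) and C1qc (0.883 as a mean over cells and 0.654 thinned). The causes were not tested. Depth limits the EYFP negative fibroblast-like values to 47363 UMIs.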
